A study of Mus musculus with 8 samples.

Results

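The nuclear pore complex is the gate between nucleus and cytoplasm, and 38 mouse genes for its subunits and for the carriers that pass through it are described here in kidneys with and without injury and with and without a Keap1 knockdown. They were selected on name and known function, as 28 pore subunits and 10 transport factors, by a list drawn up with earlier results of these arrays known. A further choice rested on measured values: a gene with several probes was represented by its brightest one, on average across all 8 arrays. Of the 38 genes, 37 had a probe that could be named and measured, out of 20581 genes tested in all. Ranbp1, which encodes a co-activator of the RAN GTPase, had no probe named through the gene table and is not analysed here.

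The RNA came from whole kidneys of male mice aged 16 weeks, hybridised to single-colour Agilent arrays in 4 groups of 2. Kidneys of wild-type (WT) mice and of Keap1 knockdown (KD) mice were taken either as normal left kidneys that had no ischemia-reperfusion injury (IRI), or at day 1 after unilateral IRI, for which the left renal artery and vein had been closed for 45 min and then opened. Keap1 encodes the adaptor that marks the stress-response factor NRF2 for breakdown. The labels do not say how the knockdown was made or in which cells it acts, and nothing states that the arrays of a group are different animals, so a p-value reflects only the scatter between samples, which may be technical.

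Nuclear pores are built from many copies of several kinds of nucleoporin: an outer scaffold of Y-shaped complexes, an inner ring, membrane-spanning subunits, a central channel lined with phenylalanine-glycine repeats, filaments on the cytoplasmic face and a basket on the nuclear face. Importins carry proteins with a nuclear localisation signal inward, exportins carry cargo outward, and the small GTPase RAN sets the direction, since it is loaded with GTP in the nucleus by RCC1 and made to hydrolyse it at the cytoplasmic face through RANGAP1. Pores disassemble and are rebuilt at each cell division in mammals, and new ones are inserted as nuclei grow.

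Values below are log2 intensities relative to the 75th percentile of the same array, so that 0 is the level of that percentile, and changes are differences of group means on that scale with limma's moderated standard error (SE, n = 2 arrays per group). A gene is said to rise, fall or differ where the two-sided limma test gave an adjusted p (Benjamini-Hochberg over 20581 genes) under 0.05. Levels of different probes are not compared. Each slide held 1 array of every group, so a change within a slide is also available. The share of spots well above background ran from 62.1% to 67.8% over the 8 arrays, the arrays of a group correlated across genes with r between 0.989 and 0.994, and the 37 probes were well above background on all 8 arrays. The targeted gene Keap1 read 2.75 and 2.66 in uninjured WT kidneys and 1.50 and 1.40 in uninjured KD kidneys, then 2.66 and 2.50 in injured WT and 1.33 and 1.04 in injured KD kidneys, a KD minus WT difference of -1.25 (SE 0.12) without injury and -1.39 (SE 0.12) with it. The tubule injury gene Havcr1 rose by 8.96 in WT and 8.66 in KD after IRI, and all 5 proximal tubule markers looked up were well above background.

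After injury many of the nuclear pore and transport genes rose in both genotypes, and limma called none lower. In WT kidneys 22 of 37 rose (59.5%) and 0 fell, where 20.6% of all genes tested were called higher and 25.2% lower. In KD kidneys 30 of 37 rose (81.1%) and 0 fell, beside 27.5% and 31.8% of all genes. The median log2 change over the 37 genes was 0.54 in WT and 0.74 in KD, against -0.08 over all genes in each. The 28 pore subunits gave 15 rises in WT and 23 in KD, with medians of 0.48 and 0.65, and the 9 measured transport factors gave 7 in each, with medians of 0.57 and 0.92. All 22 genes called in WT were among the 30 called in KD, which is 73.3% of the KD list. These comparisons share no arrays but do share the estimate of each gene's spread, so the lists are not independent. The overlap over all genes is not given here. In bulk tissue a change in the make-up of cells cannot be told apart from a change in RNA per cell.

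Between genotypes every gene called in the main fit, of group means over all 8 arrays, was higher in KD. Without injury 8 of 37 were higher in KD (21.6%) and 0 lower, beside 6.4% and 8.78% of all genes. With the replicate number, which is the slide, as a block, 10 were called there, 8 higher and 2 lower (Nup37 and Nup93). Quantile normalization called Nup214 lower. Some fits that left out an array called Nup37 or Aaas lower in KD normal. After injury 20 of 37 were higher in KD than in WT (54.1%) and 0 lower, beside 3.69% and 3.42%. The interaction, which is the injury change in KD minus that in WT, was called higher for 6 genes (16.2%) and lower for 0, beside 3.79% and 2.81%. The median log2 difference over the 37 genes was 0.10 without injury and 0.43 after it, against -0.03 and -0.04 over all genes. At an unadjusted limma p under 0.05, 5 genes were lower in KD normal than in WT normal (Nup37, Nup93, Nup98, Nup133 and Nup214), and 0 were lower in the other 4 contrasts. Counted without a model, both KD IRI arrays lay above both WT IRI arrays for 32 of 37 genes and below for 0, where 25.7% and 31.3% of all genes did so. Without injury the same count was 19 above and 8 below, beside 29.9% and 34.5% of all genes.

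The injury counts moved little when single arrays were left out, and the genotype counts fell to 0 in some of these fits. Leaving out each array in turn gave between 18 and 23 calls in WT injury and between 26 and 30 in KD injury. For KD IRI against WT IRI it gave 0 without the second KD IRI array (23 genes at an unadjusted limma p under 0.05), 2 without the first, 4 without either WT normal array and 14 to 19 otherwise. With only the 4 arrays compared in the fit, 0 genes passed after adjustment although 27 had an unadjusted limma p under 0.05, all higher in KD. Of all 20581 genes 66 passed there, beside 1463 in the fit of all 8 arrays. In the genotype and interaction contrasts, the fits that took away most calls here also lowered the calls over all genes. The sizes of the losses were not always alike, and whether they were particular to the pore and transport genes was not tested. The 8 calls without injury became 0 without either WT normal array (12 and 10 genes at an unadjusted p under 0.05), 3 without the first KD normal array and 5 without either KD IRI array. The 6 interaction calls became 0 by limma without either WT normal or either KD IRI array (11 to 14 genes at an unadjusted p under 0.05), 2 and 1 without the first and second KD normal array, and 2 without the second WT IRI array. Of the calls in these 3 contrasts, 0 held in all 8 such fits, against 18 of 22 and 26 of 30 for injury. Normexp background correction, an alternative that starts from the spot and local background signals, ended 4 calls in WT injury (Nup107, Nup133, Nup188 and Nup205), 4 in KD injury (Nup98, Nup107, Nup188 and Nup205), 5 without injury (Kpna1, Kpna2, Nup50, Nup62 and Ran) and 5 between injured kidneys (Nup43, Nup88, Nup107, Nup160 and Ran). Without the intensity trend 7 calls between injured kidneys were lost (Kpna4, Kpnb1, Nup88, Nup133, Nup153, Nup160 and Ran; adjusted p from 0.0522 to 0.089). With the deposited log2 table all 6 interaction calls were lost (adjusted p from 0.0513 to 0.0784).

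**Figure D1:**
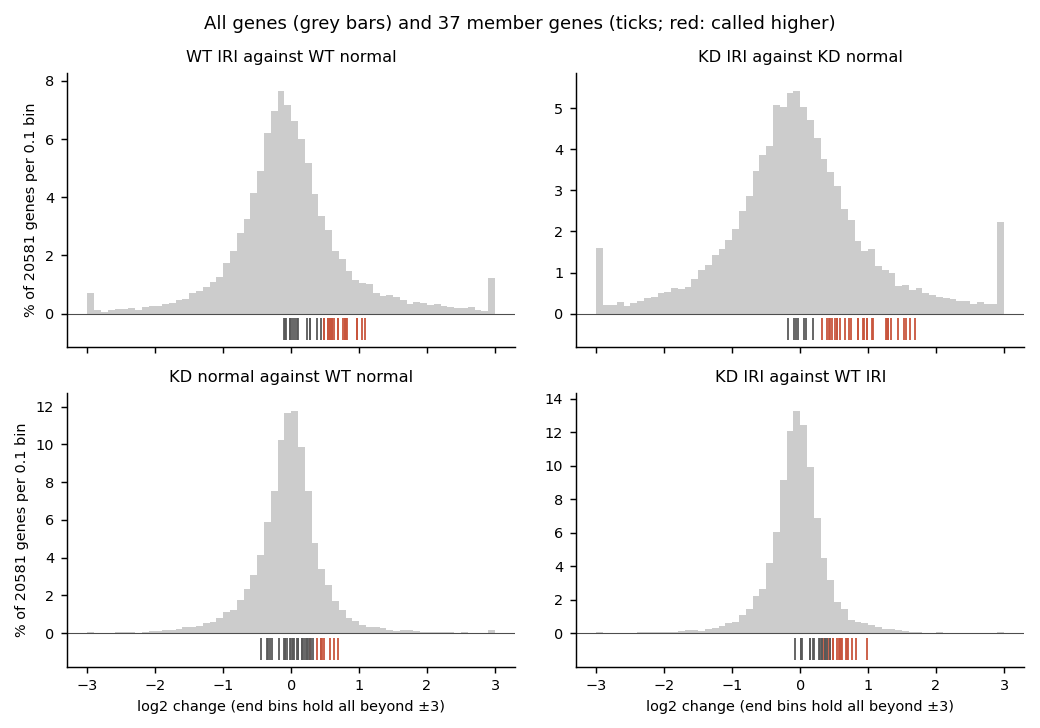
Histograms of the log2 change of all 20581 genes tested (grey bars, in percent of genes per 0.1 bin; the end bins hold everything beyond 3) for each of 4 comparisons, with 1 tick below the axis for each of the 37 nuclear pore and transport genes, red where called higher. The ticks sit to the right of the bulk of the bars in both injury comparisons and in KD IRI against WT IRI (medians 0.54, 0.74 and 0.43), and straddle it in KD normal against WT normal (median 0.10).

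Promoter sequence was looked at because many of these genes rose together. RefSeq windows on GRCm38.p6, 250 bases before to 50 bases after a start, matched 32 of the 38 genes with 35 windows, 2 each for Nup37, Nup93 and Nup98. The searched motifs, on both strands, were the nuclear respiratory factor 1 core GCATGCGC, the ETS core with letters CCGGAAG, the E-box with letters CACGTG, the CCAAT box, the cyclic AMP response element TGACGTCA, the antioxidant response core TGACNNNGC and E2F sites, which are TTTCCCGC and also TTTGGCGC and also TTTGCCGC and also TTTCGCGC. The nuclear respiratory factor 1 core overlaps its own reverse complement in most matches, and a window with any match counts once. The nuclear respiratory factor 1 core was present in 6 of 35 windows (17.1%), beside 2.71% of all 32851 windows and 4.505% of the windows of tested genes. ETS cores were in 8 windows (22.9%), beside 8.86% and 15.2%. These windows belong to 7 genes, because the 2 windows of Nup37 overlap and hold the same ETS matches. E-boxes were in 14.3%, beside 7.15% and 9.51%, and CCAAT boxes in 45.7%, beside 37.4% and 37.15%. The antioxidant response core, the element bound by NRF2, was in 11.4%, beside 12.4% and 13.9%. E2F sites were in 2 windows (5.71%), beside 2.27% and 3.53%, and cyclic AMP elements in 2 windows (5.71%), beside 1.79% and 2.76%.

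The 6 genes with the nuclear respiratory factor 1 core were Nup50, Nup62, Nup107, Ran, Ranbp1 and Rcc1, the last with its match after the start. Ranbp1, which was not measured, has the core before its start. Shown here are the 250 bases before the start of the 4 measured genes with the core in that stretch. Those of Kpna4, which differed by genotype and passed in neither injury comparison, are shown too. Many genes that rose after injury in both genotypes had no such core in their windows, among them Nup93, Nup160, Ndc1, Kpna2 and Kpnb1. Capitals mark every match to any of the searched motifs, and a match is a description of the letters only.
Nup62: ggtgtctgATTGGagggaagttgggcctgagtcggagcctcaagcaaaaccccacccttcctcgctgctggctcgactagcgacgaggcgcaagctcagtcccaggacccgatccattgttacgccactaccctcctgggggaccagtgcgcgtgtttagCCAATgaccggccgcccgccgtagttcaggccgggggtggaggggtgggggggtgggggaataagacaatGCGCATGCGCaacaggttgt
Nup50: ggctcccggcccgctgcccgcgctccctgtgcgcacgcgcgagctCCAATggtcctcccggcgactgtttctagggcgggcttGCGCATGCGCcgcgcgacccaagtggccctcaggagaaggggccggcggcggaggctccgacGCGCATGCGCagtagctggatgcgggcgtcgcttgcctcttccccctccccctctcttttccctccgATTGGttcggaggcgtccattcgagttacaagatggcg
Nup107: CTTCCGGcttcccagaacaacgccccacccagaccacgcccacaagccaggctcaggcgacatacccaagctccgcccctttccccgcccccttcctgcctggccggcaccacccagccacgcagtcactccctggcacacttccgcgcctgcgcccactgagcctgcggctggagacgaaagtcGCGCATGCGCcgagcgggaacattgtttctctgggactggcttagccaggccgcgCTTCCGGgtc
Ran: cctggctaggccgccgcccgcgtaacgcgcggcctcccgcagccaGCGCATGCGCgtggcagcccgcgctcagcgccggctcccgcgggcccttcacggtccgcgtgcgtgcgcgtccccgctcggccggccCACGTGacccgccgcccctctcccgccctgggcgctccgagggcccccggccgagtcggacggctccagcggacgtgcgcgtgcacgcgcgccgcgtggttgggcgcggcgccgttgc
Kpna4: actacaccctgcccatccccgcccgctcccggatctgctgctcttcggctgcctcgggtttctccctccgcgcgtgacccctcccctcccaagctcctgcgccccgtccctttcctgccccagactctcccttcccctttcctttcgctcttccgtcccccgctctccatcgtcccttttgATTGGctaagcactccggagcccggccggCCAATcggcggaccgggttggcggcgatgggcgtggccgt
On GRCm38.p6 these lie at chr7:44815838-44816087, plus strand, for Nup62; chr15:84923178-84923427, plus strand, for Nup50; chr10:117792706-117792955, minus strand, for Nup107; chr5:129019906-129020155, plus strand, for Ran; and chr3:69127093-69127342, minus strand, for Kpna4, each written 5′ to 3′ in the direction of the gene. The only capitals in the Kpna4 stretch are CCAAT boxes, of which there are 2.

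Nup62 made the largest rise of all 37 genes in both injury comparisons. It encodes a central channel nucleoporin whose phenylalanine-glycine repeats contact passing carriers. Nup62 read 0.31 and 0.27 in uninjured WT kidneys and 0.73 and 0.62 in uninjured KD kidneys, then 1.28 and 1.48 in injured WT and 2.33 and 2.40 in injured KD kidneys. The 4 groups stood in order without overlap, from WT normal through KD normal and WT IRI to KD IRI. Injury raised it by 1.09 (SE 0.09, adjusted p = 0.000268) in WT, which is 2.12-fold, and by 1.69 (SE 0.09, adjusted p = 2.7e-05) in KD, which is 3.23-fold. KD exceeded WT by 0.38 (SE 0.09, adjusted p = 0.0397) without injury and by 0.99 (SE 0.09, adjusted p = 0.00655) with it, and the interaction was 0.61 (SE 0.13, adjusted p = 0.0463). The call without injury was lost under 5 alternatives (adjusted p from 0.053 to 0.161) and the interaction under 4 (adjusted p from 0.0514 to 0.0784), here and below not counting a 2-fold minimum or the fits that left out an array. The stretch before the Nup62 start printed above holds, near its end, the nuclear respiratory factor 1 core on both strands.

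The other central channel genes had smaller changes after injury. Nup98, whose product lines the channel and anchors the mRNA export factor RAE1, read -2.02 and -1.95 in uninjured WT kidneys and -2.23 and -2.38 in uninjured KD kidneys, then -1.68 and -1.75 in injured WT and -1.88 and -1.71 in injured KD kidneys. Its injury groups lay above the normal groups in both genotypes, with a change of 0.51 (SE 0.11, adjusted p = 0.00738) in KD, called, and 0.27 (SE 0.11, adjusted p = 0.0908) in WT, not called. KD normal was the lowest group, at -0.32 (SE 0.11) against WT normal, which was not called, and the injured arrays overlapped between genotypes. Without the second KD IRI array the KD calls of Nup98 (adjusted p = 0.0547) and of Nup54 (adjusted p = 0.0516) were lost. The other 2 probes of Nup98 gave 0.03 and 0.56 in KD injury, neither called, and normexp gave 0.03 (adjusted p = 0.953). Nup54, a partner of NUP62 in the channel, rose in KD by 0.33 (SE 0.07) and was higher in KD IRI than in WT IRI by 0.45 (SE 0.07), with 0.08 (SE 0.07) in WT injury, not called. Rae1 stayed between 1.65 and 2.03 on all 8 arrays and passed in no comparison.

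Of the 9 Y complex genes, which form the outer scaffold, 6 rose in WT and 7 in KD after injury, with a median change of 0.49 in WT and 1.28 in KD. Nup160 had the largest rise in WT. Nup160 read -2.31 and -2.48 in uninjured WT kidneys and -2.05 and -2.09 in uninjured KD kidneys, then -1.36 and -1.36 in injured WT and -0.91 and -0.64 in injured KD kidneys. Every injured array lay above every normal array, and the changes were 1.04 (SE 0.12, adjusted p = 0.000835) in WT and 1.29 (SE 0.12, adjusted p = 0.00016) in KD. KD IRI exceeded WT IRI by 0.58 (SE 0.12, adjusted p = 0.0396). Its second probe gave 0.85 and 0.94 for the injury changes, both called, and 0.36 (adjusted p = 0.0982) between injured kidneys, not called. Without a filter on dim probes the call of Nup160 between injured kidneys was lost (adjusted p = 0.0643). Under normexp KD injury gave 0.84, still called, and KD IRI against WT IRI 0.39 (adjusted p = 0.449).

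Nup43 had the largest rise of the Y complex in KD. Nup43 read -2.04 and -2.02 in uninjured WT kidneys and -1.99 and -2.08 in uninjured KD kidneys, then -1.15 and -1.33 in injured WT and -0.46 and -0.49 in injured KD kidneys. The normal groups overlapped between genotypes while the KD IRI arrays lay clear above the WT IRI arrays. Injury changed it by 0.79 (SE 0.10, adjusted p = 0.00115) in WT and 1.56 (SE 0.10, adjusted p = 4.31e-05) in KD. KD IRI exceeded WT IRI by 0.76 (SE 0.10, adjusted p = 0.0156), where the normal kidneys differed by -0.01 (SE 0.10), and the interaction was 0.77 (SE 0.15, adjusted p = 0.0336), 0.65 on slide 1 and 0.90 on slide 2. Under normexp KD IRI exceeded WT IRI by 0.51 (adjusted p = 0.305) and the interaction was 0.30 (adjusted p = 0.569), neither called. The interaction call of Nup43 was also lost with the deposited table (adjusted p = 0.0513) and without a filter on dim probes (adjusted p = 0.0553).

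Nup37 and Nup133 also passed in the interaction. Nup37 read -0.36 and -0.35 in uninjured WT kidneys and -0.95 and -0.64 in uninjured KD kidneys, then 0.06 and 0.19 in injured WT and 0.40 and 0.58 in injured KD kidneys. Both KD normal arrays were below both WT normal arrays and both KD IRI arrays were above both WT IRI arrays, although neither genotype difference passed at -0.44 (SE 0.13, adjusted p = 0.0633) and 0.37 (SE 0.13, adjusted p = 0.128). With the slide as a block Nup37 was called lower in KD normal (adjusted p = 0.0343). Its injury change was 0.48 (SE 0.13) in WT and 1.29 (SE 0.13) in KD, both called, and the interaction was 0.81 (SE 0.18, adjusted p = 0.0488). The interaction call was lost under quantile normalization (adjusted p = 0.0523) and normexp (adjusted p = 0.0773). It was also lost with the deposited table, without a filter on dim probes and without the intensity trend (adjusted p from 0.071 to 0.0837). The WT call was lost without either WT normal array (adjusted p = 0.0936 and 0.0872) and without the second WT IRI array (adjusted p = 0.0895).

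Nup133 followed the same order of groups. Nup133 read 1.30 and 1.28 in uninjured WT kidneys and 1.10 and 1.12 in uninjured KD kidneys, then 1.83 and 1.73 in injured WT and 2.17 and 2.17 in injured KD kidneys. The normal KD arrays were the lowest and the injured KD arrays the highest, without overlap between any groups. Injury raised it by 0.49 (SE 0.07) in WT and 1.06 (SE 0.07) in KD, KD IRI exceeded WT IRI by 0.39 (SE 0.07, adjusted p = 0.0273), and the interaction was 0.58 (SE 0.10, adjusted p = 0.0296). The difference of -0.18 (SE 0.07) between normal kidneys was not called. Under normexp the WT injury change was 0.32 (adjusted p = 0.126). The interaction call of Nup133 was lost with the deposited table (adjusted p = 0.0531) and without the intensity trend (adjusted p = 0.0548).

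Nup85 and Nup107, both of the Y complex, rose in both genotypes. For Nup85 the change was 0.69 (SE 0.11) in WT and 1.34 (SE 0.11) in KD, and for Nup107 it was 0.62 (SE 0.12) and 1.28 (SE 0.12). Both were higher in KD IRI than in WT IRI, by 0.68 and 0.56, with interactions of 0.64 (SE 0.15, adjusted p = 0.0514) and 0.66 (SE 0.17, adjusted p = 0.0671), neither called. Under normexp Nup107 kept no call, with 0.88 (adjusted p = 0.104) in WT injury, 0.45 (adjusted p = 0.421) in KD injury and 0.0044 (adjusted p = 0.996) between injured kidneys. Without a filter on dim probes the last of these calls of Nup107 was lost too (adjusted p = 0.0665). Ahctf1, which encodes the ELYS protein that seeds pores on chromatin, rose in KD by 0.55 (SE 0.14, adjusted p = 0.0146) and not in WT, at 0.38 (SE 0.14, adjusted p = 0.0678). That KD call was lost without the second KD normal array (adjusted p = 0.0707) and without either KD IRI array (adjusted p = 0.0594 and 0.0651), and a second probe gave -0.08.

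Seh1l and Sec13, the Y complex members that also serve outside the pore, in the lysosomal GATOR complex and for SEC13 in vesicle coats, passed in no comparison. Sec13 lay between 1.78 and 2.04 on all arrays and Seh1l between 0.95 and 1.19. The 95% interval of the injury change ran from -0.21 to 0.16 in WT and from -0.22 to 0.15 in KD for Sec13. For Seh1l it ran from -0.20 to 0.18 and from 0.01 to 0.38. A second Seh1l probe was higher in KD normal than in WT normal by 0.64 (SE 0.12, adjusted p = 0.0166), where the first gave -0.06, so the probes disagree on that comparison.

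**Figure D2:**
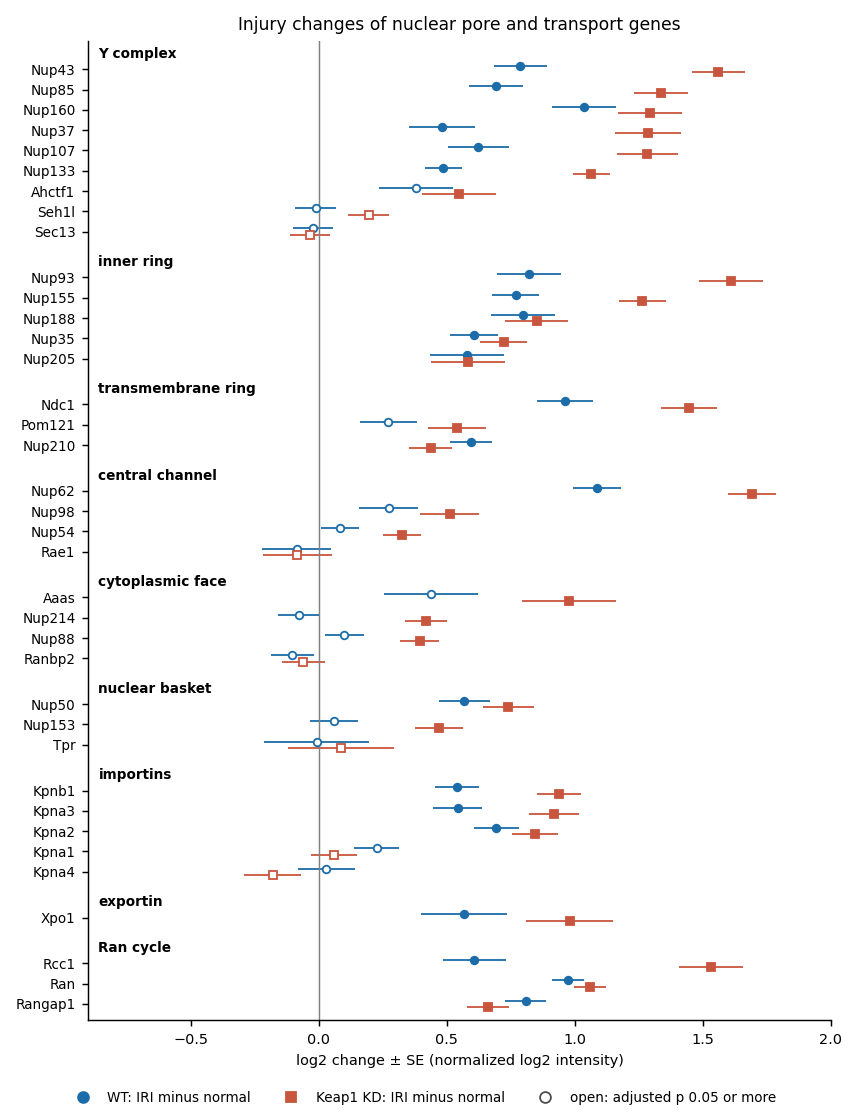
Log2 change after injury with its SE for each of the 37 genes, grouped by role, in WT (blue circles) and KD kidneys (red squares), 2 arrays per group; open symbols did not pass. In 30 genes the red symbol is filled and in 22 the blue one, and no filled symbol lies left of 0.

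All 5 inner ring genes, which line the scaffold around the channel, rose after injury in both genotypes, although Nup188 and Nup205 were called in neither under normexp. Nup93, the hub of the inner ring, rose most. Nup93 read -0.18 and -0.06 in uninjured WT kidneys and -0.62 and -0.33 in uninjured KD kidneys, then 0.66 and 0.75 in injured WT and 1.04 and 1.22 in injured KD kidneys. KD normal was the lowest group and KD IRI the highest, with no overlap. Injury changed it by 0.82 (SE 0.12, adjusted p = 0.00212) in WT and 1.61 (SE 0.12, adjusted p = 6.99e-05) in KD, 1.77-fold and 3.05-fold, and the interaction was 0.79 (SE 0.18, adjusted p = 0.0477). Neither genotype difference passed, at -0.36 (SE 0.12, adjusted p = 0.0968) without injury and 0.43 (SE 0.12, adjusted p = 0.0824) with it. With the slide as a block Nup93 was called lower in KD normal (adjusted p = 0.0382). The interaction call of Nup93 was lost with the deposited table, without a filter on dim probes and without the intensity trend (adjusted p from 0.0708 to 0.0815).

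Nup35, a membrane-binding inner ring subunit, differed between genotypes both with and without injury. Nup35 read 1.05 and 1.21 in uninjured WT kidneys and 1.71 and 1.70 in uninjured KD kidneys, then 1.83 and 1.64 in injured WT and 2.43 and 2.43 in injured KD kidneys. WT IRI overlapped KD normal, while WT normal was lowest and KD IRI highest. KD exceeded WT by 0.58 (SE 0.09, adjusted p = 0.0125) without injury and 0.69 (SE 0.09, adjusted p = 0.0156) with it, the injury change was 0.61 (SE 0.09) in WT and 0.72 (SE 0.09) in KD, and the interaction was 0.12 (SE 0.13, adjusted p = 0.633). Among the remaining inner ring genes, Nup155 rose by 0.77 (SE 0.09) and 1.26 (SE 0.09) and was higher in KD IRI than in WT IRI by 0.60, where its probe 3 gave 0.03 (adjusted p = 0.958). Nup188 rose by 0.80 and 0.85 and Nup205 by 0.58 and 0.58, with no call between genotypes. Under normexp Nup188 gave 1.01 (adjusted p = 0.196) and -0.02 (adjusted p = 0.981), and Nup205 gave 0.80 (adjusted p = 0.112) and 0.01 (adjusted p = 0.979). Nup205 lost its WT call without the first WT normal array (adjusted p = 0.102) or the first WT IRI array (adjusted p = 0.0692), and its KD call without the second KD IRI array (adjusted p = 0.0635).

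The membrane-spanning subunits anchor the pore in the nuclear envelope. Ndc1 read -1.56 and -1.50 in uninjured WT kidneys and -1.22 and -1.39 in uninjured KD kidneys, then -0.55 and -0.59 in injured WT and 0.04 and 0.24 in injured KD kidneys. The 4 groups did not overlap, with WT normal lowest and KD IRI highest. Injury raised it by 0.96 (SE 0.11, adjusted p = 0.000671) in WT and 1.45 (SE 0.11, adjusted p = 6.37e-05) in KD, and KD IRI exceeded WT IRI by 0.71 (SE 0.11, adjusted p = 0.0198), while the interaction of 0.48 (SE 0.15) was not called. Nup210, a glycoprotein of the lumenal ring, read 1.35 and 1.34 in uninjured WT kidneys and 1.56 and 1.48 in uninjured KD kidneys, then 1.88 and 2.00 in injured WT and 2.02 and 1.90 in injured KD kidneys. It rose by 0.59 (SE 0.08, adjusted p = 0.00155) in WT and 0.44 (SE 0.08, adjusted p = 0.00358) in KD, and its injured arrays overlapped between genotypes, which differed by 0.02 (SE 0.08). Pom121 rose in KD by 0.54 (SE 0.11) and read 0.27 (SE 0.11) in WT, not called. Its other 2 probes gave -0.11 and 0.05 in KD, neither called.

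On the cytoplasmic face 0 of 4 genes passed in WT injury and 3 of 4 in KD injury; 1 had an unadjusted limma p under 0.05 in WT. Aaas, which encodes aladin, the protein mutated in triple A syndrome, read 0.02 and 0.14 in uninjured WT kidneys and -0.31 and -0.21 in uninjured KD kidneys, then 0.82 and 0.21 in injured WT and 0.68 and 0.74 in injured KD kidneys. The injured arrays lay above the normal ones in each genotype, the WT IRI arrays lay far apart, at 0.82 and 0.21, and the WT change of 0.44 (SE 0.18, adjusted p = 0.0905) was not called. In KD the change was 0.98 (SE 0.18, adjusted p = 0.00336). Without injury KD minus WT was -0.34 for Aaas, not called, with both KD arrays below both WT arrays. Nup88, which holds the export platform on that face, read 3.01 and 2.95 in uninjured WT kidneys and 3.1 and 2.95 in uninjured KD kidneys, then 3.09 and 3.06 in injured WT and 3.41 and 3.43 in injured KD kidneys. The injured KD arrays stood above all others, which lay close together. It rose in KD by 0.39 (SE 0.08, adjusted p = 0.00391) and was higher in KD IRI than in WT IRI by 0.34 (SE 0.08, adjusted p = 0.0478), against 0.10 (SE 0.08) in WT injury. The call between injured kidneys was lost under 5 alternatives (adjusted p from 0.0594 to 0.133).

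Nup214, the docking site of the exportin CRM1, rose in KD by 0.42 (SE 0.08), where its second probe gave -0.33 without passing, and read -0.08 (SE 0.08) in WT. Its interaction of 0.49 (SE 0.12, adjusted p = 0.0536) was not called. Ranbp2, the filament protein with SUMO ligase activity, lay between 1.38 and 1.82 on all arrays and passed in no comparison. The interactions of the 8 genes called in KD injury and not in WT injury (Aaas, Ahctf1, Nup54, Nup88, Nup98, Nup153, Nup214 and Pom121) had adjusted p from 0.0536 to 0.657, so their injury responses were not shown to differ between genotypes.

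The nuclear basket receives carriers on the inner side. Nup50, which helps to free importin alpha from its cargo, read 0.16 and 0.08 in uninjured WT kidneys and 0.68 and 0.45 in uninjured KD kidneys, then 0.64 and 0.73 in injured WT and 1.28 and 1.34 in injured KD kidneys. Its groups did not overlap apart from KD normal, whose higher array exceeded the lower WT IRI array. Injury raised it by 0.57 (SE 0.10, adjusted p = 0.00384) in WT and 0.74 (SE 0.10, adjusted p = 0.00072) in KD, and KD exceeded WT by 0.45 (SE 0.10, adjusted p = 0.0298) without injury and 0.62 (SE 0.10, adjusted p = 0.0212) with it. A second probe gave 0.30, not called, and 0.52, called, for the injury changes, and probe 3 gave -0.05 and 0.01. The call without injury was lost under normexp (adjusted p = 0.151), with only the arrays compared (adjusted p = 0.0598) and with both other probes. Nup153 rose in KD by 0.47 (SE 0.09) and was higher in KD IRI than in WT IRI by 0.49 (SE 0.09), with 0.06 (SE 0.09) in WT injury. Its probe 3 gave 0.20 and 0.29, neither called. Tpr, the basket scaffold, passed in no comparison, and its slide 1 array was the higher one in every group. The 95% interval of its WT injury change ran from -0.49 to 0.48. The same interval ran from -0.40 to 0.23 for Rae1 and from -0.30 to 0.10 for Ranbp2.

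Among the importins, Kpna2 encodes an importin alpha abundant in dividing cells. Kpna2 read 1.83 and 1.81 in uninjured WT kidneys and 2.28 and 2.23 in uninjured KD kidneys, then 2.56 and 2.46 in injured WT and 3.0 and 3.20 in injured KD kidneys. The 4 groups rose in the order WT normal, KD normal, WT IRI and KD IRI without overlap. Injury changed it by 0.69 (SE 0.09, adjusted p = 0.00107) in WT and 0.84 (SE 0.09, adjusted p = 0.000234) in KD. KD exceeded WT by 0.44 (SE 0.09, adjusted p = 0.0223) without injury and 0.59 (SE 0.09, adjusted p = 0.0191) with it. Under normexp the difference without injury was 0.28 (adjusted p = 0.412). Its second probe was called in the same direction in all 4 of these comparisons.

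Kpnb1 encodes importin beta, the common partner of the importin alpha proteins. Kpnb1 read 1.16 and 1.23 in uninjured WT kidneys and 1.18 and 1.26 in uninjured KD kidneys, then 1.81 and 1.65 in injured WT and 2.12 and 2.20 in injured KD kidneys. The normal groups overlapped and differed by 0.03 (SE 0.09), and the injured groups did not overlap. It rose by 0.54 (SE 0.09, adjusted p = 0.00261) in WT and 0.94 (SE 0.09, adjusted p = 0.000136) in KD, and KD IRI exceeded WT IRI by 0.43 (SE 0.09, adjusted p = 0.0347). A second probe gave 0.99 and 1.34 for the injury changes, both called.

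Kpna4, another importin alpha, passed between genotypes and in neither injury comparison. Kpna4 read -0.02 and -0.05 in uninjured WT kidneys and 0.70 and 0.62 in uninjured KD kidneys, then -0.12 and 0.11 in injured WT and 0.39 and 0.58 in injured KD kidneys. Every KD array lay above every WT array. KD exceeded WT by 0.69 (SE 0.11, adjusted p = 0.0124) without injury and 0.49 (SE 0.11, adjusted p = 0.0488) with it, while the injury change was 0.03 (SE 0.11) in WT and -0.18 (SE 0.11) in KD, neither called. Its 2 other probes gave genotype differences of 0.86 and 1.12 without injury, both called, and probe 3 rose by 0.67 in WT injury. Between injured kidneys probe 3 gave 0.43 (adjusted p = 0.0884), not called. The Kpna4 call there was also lost with the deposited table (adjusted p = 0.0675), without a filter on dim probes (adjusted p = 0.0718) and with only the arrays compared (adjusted p = 0.142). Kpna1 was likewise higher in KD normal, by 0.49 (SE 0.09, adjusted p = 0.0179), with 0.32 (SE 0.09, adjusted p = 0.0764) in injured kidneys and no call in either injury comparison; that call was lost under normexp (0.42, adjusted p = 0.212). Kpna3 rose by 0.54 (SE 0.10) and 0.92 (SE 0.10) and was higher in KD IRI than in WT IRI by 0.54 (SE 0.10). Its probe 2 gave 1.05 in WT injury, called, and its probe 3 gave 0.47 there and 0.32 between injured kidneys, neither called.

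**Figure D3:**
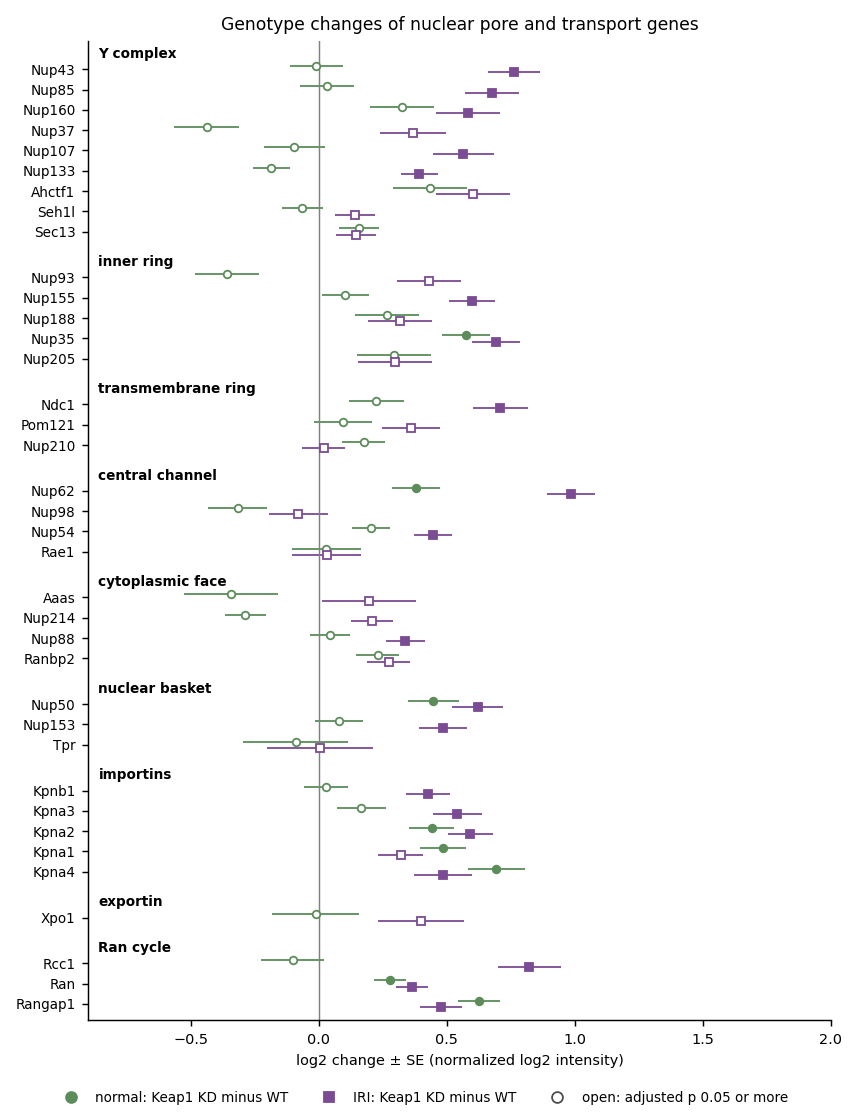
Log2 difference of KD minus WT with its SE for each of the 37 genes, grouped by role, in normal kidneys (green circles) and injured kidneys (purple squares), 2 arrays per group; open symbols did not pass. The 8 filled circles and 20 filled squares all lie right of 0, and 7 genes have both.

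Xpo1 encodes CRM1, the main exporter of proteins. Xpo1 read 0.88 and 0.76 in uninjured WT kidneys and 1.07 and 0.54 in uninjured KD kidneys, then 1.49 and 1.29 in injured WT and 1.79 and 1.78 in injured KD kidneys. The KD normal arrays differed from each other by more than the genotypes did, and the injured arrays lay above the normal ones in both genotypes. It rose by 0.57 (SE 0.17, adjusted p = 0.0299) in WT and 0.98 (SE 0.17, adjusted p = 0.00221) in KD. KD IRI against WT IRI gave 0.40 (SE 0.17, adjusted p = 0.187), not called, and the WT injury call was lost without either WT normal, either WT IRI or either KD IRI array (adjusted p from 0.0502 to 0.136). A second probe gave 0.64 and 0.58 for the injury changes, neither called.

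The Ran cycle genes all rose in both injury comparisons. Ran read 5.11 and 5.06 in uninjured WT kidneys and 5.36 and 5.37 in uninjured KD kidneys, then 6.06 and 6.05 in injured WT and 6.46 and 6.39 in injured KD kidneys. The arrays of a group lay close together and the 4 groups did not overlap. Injury raised Ran by 0.97 (SE 0.06, adjusted p = 0.00011) in WT and 1.06 (SE 0.06, adjusted p = 3.23e-05) in KD, 1.96-fold and 2.09-fold. KD exceeded WT by 0.28 (SE 0.06, adjusted p = 0.0312) without injury and 0.37 (SE 0.06, adjusted p = 0.0242) with it, and the interaction was 0.09 (SE 0.09), not called. Both genotype calls were lost under normexp, at 0.10 (adjusted p = 0.858) without injury and 0.57 (adjusted p = 0.245) with it. They were also lost with the deposited table, without the intensity trend and with only the arrays compared (adjusted p from 0.0514 to 0.0931).

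Rcc1, the nuclear exchange factor that loads RAN with GTP, had the largest interaction of the 37 genes. Rcc1 read -1.28 and -1.10 in uninjured WT kidneys and -1.17 and -1.42 in uninjured KD kidneys, then -0.52 and -0.64 in injured WT and 0.19 and 0.30 in injured KD kidneys. The normal groups overlapped between genotypes, and the KD IRI arrays lay well above the WT IRI arrays. Injury changed it by 0.61 (SE 0.12, adjusted p = 0.00706) in WT and 1.53 (SE 0.12, adjusted p = 8.29e-05) in KD, and KD IRI exceeded WT IRI by 0.82 (SE 0.12, adjusted p = 0.0192). The interaction was 0.92 (SE 0.17, adjusted p = 0.0337), 0.59 on slide 1 and 1.26 on slide 2. The interaction call was lost under 4 alternatives, and normexp gave 0.68 (adjusted p = 0.163). Without the first WT normal array its WT injury call was lost (adjusted p = 0.0555).

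Rangap1, the activator of RAN's hydrolysis at the cytoplasmic face, had the largest genotype difference of the Ran cycle without injury. Rangap1 read 1.62 and 1.62 in uninjured WT kidneys and 2.28 and 2.20 in uninjured KD kidneys, then 2.45 and 2.40 in injured WT and 2.82 and 2.98 in injured KD kidneys. The 4 groups did not overlap. KD exceeded WT by 0.63 (SE 0.08, adjusted p = 0.00781) without injury and 0.48 (SE 0.08, adjusted p = 0.0234) with it, and injury raised it by 0.81 (SE 0.08) in WT and 0.66 (SE 0.08) in KD. Its interaction of -0.15 (SE 0.11) was not called.

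**Figure D4:**
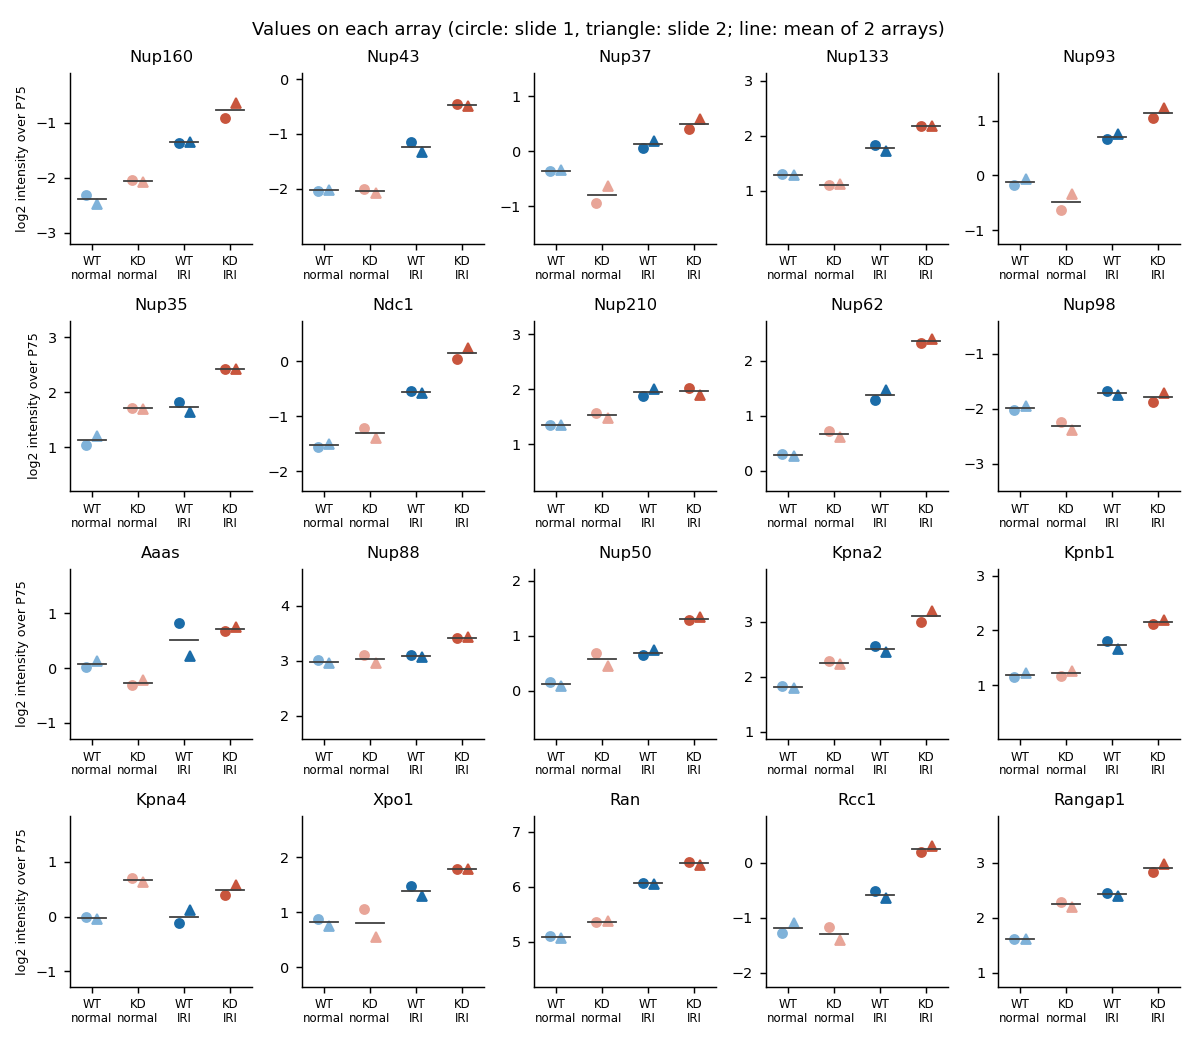
Log2 intensity over the 75th percentile of each array for the 20 genes whose array values are given in the text, by group, with circles for slide 1, triangles for slide 2 and a line at the mean of 2 arrays; all panels span the same number of log2 units. Nup62 climbs from 0.27 to 2.40 across the groups, Kpna4 separates by genotype, and Rcc1, Nup43 and Nup37 show their highest values in KD IRI.

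Across all the genes, 7 of the 8 called in the uninjured genotype comparison were also called in the injured one, namely Kpna2, Kpna4, Nup35, Nup50, Nup62, Ran and Rangap1. That is 87.5% of the first list and 35% of the second, and the overlap over all genes is not given here. The comparisons share no arrays but do share the estimate of each gene's spread, so the lists are not independent. The remaining 13 of the 20 passed between injured kidneys and not between normal ones, and of these Nup43, Nup133 and Rcc1 also passed the interaction, which tests that difference. Tpr, Sec13, Rae1, Seh1l and Ranbp2 passed in no comparison. Of the 37 genes, 32 passed in at least 1.

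Where other probes existed, they mostly had the sign of the chosen one. Among 19 genes there were 26 further kept probes, of which 23 shared the sign in WT injury, 23 in KD injury, 20 in KD normal against WT normal, 23 in KD IRI against WT IRI and 15 in the interaction. In the first 4 of these comparisons, 8, 11, 8 and 7 of the 26 were themselves called in that direction. In the interaction 0 of the 26 were called. The genes called there (Nup37, Nup43, Nup62, Nup93, Nup133 and Rcc1) had 1 probe each, so other probes do not bear on those calls. The 1 probe called in the opposite direction was that of Seh1l in normal kidneys. With the mean of all kept probes in place of the brightest, the KD injury calls of Ahctf1, Nup98, Nup214 and Pom121 were lost (adjusted p from 0.0668 to 0.837). So were the WT injury call of Xpo1 (adjusted p = 0.0841), that of Nup50 without injury (adjusted p = 0.0678) and that of Nup155 between injured kidneys (adjusted p = 0.0626).

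Cycling-cell markers rose with many of the pore and transport genes after injury. In normal KD kidneys the marker median was lower than in WT, while the pore and transport genes went both ways. Of 13 listed markers 12 were tested, Rrm2 having no kept probe, and all 12 rose in both injury comparisons, with median log2 changes of 2.14 in WT and 4.66 in KD. Mki67, the antigen of proliferating cells, read -1.23 and -0.93 in uninjured WT kidneys and -2.28 and -2.58 in uninjured KD kidneys, then 1.61 and 0.58 in injured WT and 2.15 and 2.81 in injured KD kidneys. The summed level of the 12, as a multiple of the 75th percentile, ran from 14.8 to 15.4 in WT normal, from 12.5 to 13.2 in KD normal, from 39.6 to 61.8 in WT IRI and from 103 to 109 in KD IRI. In KD normal 4 of 12 (Aurkb, Ccnb1, Mki67 and Top2a) were lower than in WT normal, where 8 of the pore and transport genes were higher. Of the 37 pore and transport genes, 25 had a positive and 12 a negative difference there, called or not. In KD IRI 5 of 12 were higher than in WT IRI and 10 of 12 had a higher interaction. The part of cycling cells in the results above was not tested.

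**Figure D5:**
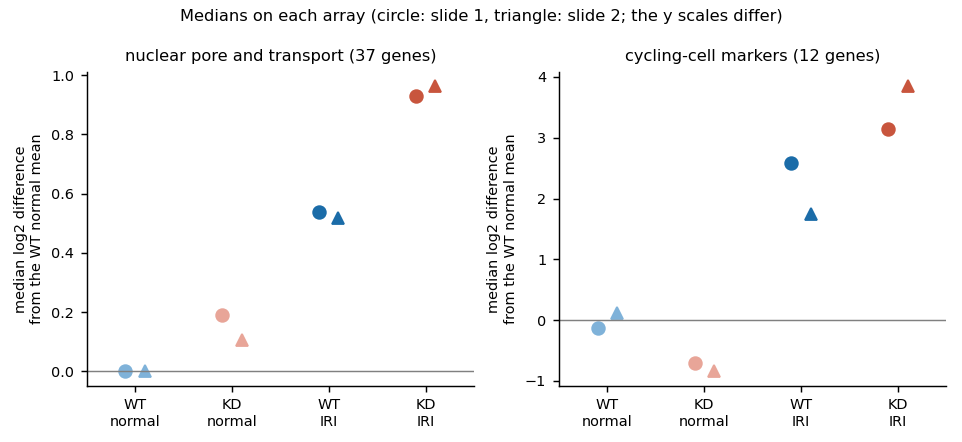
Median log2 difference from the WT normal mean on each array, for the 37 nuclear pore and transport genes (left) and the 12 cycling-cell markers (right); circles are slide 1, triangles slide 2, and the y scales differ. The left medians rise from 0 in WT normal through 0.19 and 0.10 in KD normal and 0.54 and 0.52 in WT IRI to 0.93 and 0.96 in KD IRI, whereas the right ones are at -0.70 and -0.84 in KD normal.

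Other cell markers shifted with injury too. The 5 of 7 neutrophil markers tested summed to 0.281 and 0.295 in WT normal, from 0.748 to 5.94 in KD normal, from 47.9 to 99.6 in WT IRI and from 52.0 to 57.7 in KD IRI, and Camp and Ngp were not well above background on any array; 4 of the 5 rose in each genotype after injury. The 6 of 7 monocyte and macrophage markers with a kept probe (not Cd68) summed to between 3.18 and 4.11 in the normal groups and between 7.07 and 9.99 in the injured ones. Of these 5 rose and 1 fell in each genotype, the last being Csf1r, at -0.97 in WT and -0.58 in KD. All 5 proximal tubule markers fell in both genotypes, with a summed level of 476 to 549 in the normal groups and 109 to 199 in the injured ones. The 3 loop and distal tubule markers also fell in both, their sum being 316 to 318 in WT normal, 255 to 275 in KD normal, 205 to 232 in WT IRI and 196 to 207 in KD IRI. Of 4 red blood cell markers 3 were tested (not Hbb-b1), of which 3 fell in WT and 2 in KD after injury, with sums of 31.5 to 97.6 in WT normal, 33.0 to 41.4 in KD normal, 8.05 to 16.0 in WT IRI and 8.94 to 12.4 in KD IRI. Of 2 collecting duct markers 1 fell in each genotype, Hsd11b2 in WT and Aqp2 in KD, with sums of 13.1 to 41.5 in the normal groups and 5.89 to 13.1 in the injured ones. Their part in the results was not tested.

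Of 56 other genes of the transport pathway 52 were measured. In WT injury 24 rose (46.2%) and 3 fell, with a median of 0.29, and in KD injury 30 rose (57.7%) and 4 fell, with a median of 0.42. KD normal exceeded WT normal in 3 (5.77%), near the 6.4% of all genes, and KD IRI exceeded WT IRI in 7 (13.5%), beside 3.69% of all genes. By role, 6 of 12 further importins rose in WT and 7 in KD, 1 and 4 of 6 exportins, 1 and 3 of 3 Ran cofactors, 7 and 7 of 17 mRNA export genes, 2 and 2 of 4 SUMO enzymes or modifiers, and 6 and 6 of 9 genes of the lamina and envelope.

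Lmnb1, which encodes lamin B1 of the nuclear lamina, had the largest measured rise on that list. Lmnb1 read -0.72 and -0.80 in uninjured WT kidneys and -1.32 and -1.39 in uninjured KD kidneys, then 0.94 and 0.33 in injured WT and 1.57 and 1.75 in injured KD kidneys. KD normal was lowest and KD IRI highest. It rose by 1.39 (SE 0.19, adjusted p = 0.00132) in WT and 3.01 (SE 0.19, adjusted p = 3.66e-05) in KD, and its interaction was 1.62 (SE 0.27, adjusted p = 0.0254). Nup210l, a relative of Nup210, is among the 24 called in WT but was not well above background on either WT normal array, and no size is given for it. Lmna, for lamins A and C, rose by 1.13 (SE 0.12) in WT. In KD the next largest rises were those of Senp1, a SUMO protease, at 1.61 (SE 0.20), and Ddx39a, an mRNA export helicase, at 1.52 (SE 0.09).

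The largest falls among genes that passed were those of Nxt2, a cofactor of the mRNA exporter, of -0.94 (SE 0.13) in WT and -1.48 (SE 0.13) in KD. In WT the other genes called lower were Sun1, a linker of the nuclear envelope, at -0.37 (SE 0.08), and Eny2, of the TREX-2 export complex, at -0.30 (SE 0.07). In KD the next falls among genes that passed were those of Gle1, which acts at the cytoplasmic face, at -0.39 (SE 0.08), and Sun1, at -0.23 (SE 0.08). In normal kidneys Senp2, Ipo9 and Xpo7 were higher in KD, by 0.66, 0.62 and 0.35. In injured kidneys Lmnb1, Alyref and Nxt1 led, by 1.03, 0.67 and 0.59. Alyref, an adaptor for mRNA export, was the other gene with a called interaction, 0.65 (SE 0.12, adjusted p = 0.0333).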

How the data were processed

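Total RNA (300 ng, Cy3) from 8 kidney samples was measured on single-colour Agilent arrays, 2 per group on 2 slides. Spot intensities in the deposited scanner files had been corrected for background and for spatial trends in Agilent Feature Extraction (version 10.7.3.1), per the file headers. A deposited log2 value table of the same arrays, whose scale and centring are not given by the authors in the sources used here, matched the centred values with r from 0.998 to 0.9999 and served as an alternative; its column medians ran from -0.136 to 0.160.

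Flagged spots were left out, spots of a probe averaged, and log2 intensity was centred on the 75th percentile of each array. Probes with a value on all 8 arrays and flagged well above background on each array of 1 or more groups were kept (27409 of 41174), and the brightest per gene was used. Genes were named through a RefSeq table (GRCm38.p6), which gave symbols to 14105 of the 20581 genes tested. Group means of all 8 arrays were fitted in limma 3.58.1 (R 4.3.3; trend, 4 residual degrees of freedom). The scripts were tested on simulated data.

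Members and lists were chosen with earlier results of these data known. By rule, array values are given for the largest changes per role and comparison, for genes called in the interaction, and for 7 listed genes (Kpna2, Kpnb1, Xpo1, Ran, Nup62, Nup98, Nup210); other pathway genes are the 3 largest rises and falls per comparison.

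Replicate numbers coincide with slides. Differences between same-numbered arrays correlated between groups with r from 0.022 to 0.262, so the numbers were not used to pair samples, and the replicate block is an alternative. The other alternatives were quantile normalization, normexp on the median spot signals (mean signals not used here), the deposited table, 2 other probe filters, no trend, only the arrays compared, probe means, a minimum of 2-fold, other probes and leaving out each array. Precision is limited by having 8 arrays.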

Additional observations from a re-analysis of the deposited data

Results flagged for a closer look

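The injury change differed between genotypes, by the limma interaction test over 20581 genes, for 6 nuclear pore and transport genes, each larger in KD. The interactions, as the injury change in KD minus that in WT on the log2 scale, were 0.924 for Rcc1 (adjusted p = 0.0337), 0.806 for Nup37 (adjusted p = 0.0488), 0.79 for Nup93 (adjusted p = 0.0477), 0.772 for Nup43 (adjusted p = 0.0336), 0.606 for Nup62 (adjusted p = 0.0463) and 0.578 for Nup133 (adjusted p = 0.0296). Each had the same sign on both slides, from 0.544 on slide 1 for Nup133 to 1.26 on slide 2 for Rcc1. The slide values average to the interaction by which these genes were selected, so their shared sign is no further support. All 6 lost the call in at least 1 fit that left out an array.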

How the results depend on the processing

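The counts of called genes (22, 30, 8, 20 and 6, in the order WT injury, KD injury, normal kidneys by genotype, injured kidneys by genotype and interaction) moved by over 1.5 times under these settings. Requiring at least 2-fold left 2, 12, 0, 0 and 0 of 37 genes. Of all 20581 genes it left 1767 higher and 1685 lower in WT injury, and 2631 higher and 2855 lower in KD injury. At 2-fold the share called higher in WT injury was thus smaller for the 37 genes than for all genes. In KD injury it stayed larger for the 37 genes. Normexp background correction left 3 in KD normal against WT normal, and it moved the median of all genes to 0.20, -0.34, 0.15, -0.22 and -0.31. Without the intensity trend 13 were called in KD IRI against WT IRI and 1 in the interaction; without a filter on dim probes, 1 in the interaction. The deposited log2 table gave 0 in the interaction (14 at an unadjusted limma p under 0.05), and only the arrays compared gave 0 in KD IRI against WT IRI (27 unadjusted). Over all 20581 genes these settings gave 636 and 66 calls, beside 1359 and 1463 in the main fit. With the replicate block the counts were 22, 30, 10, 21 and 5, and the 2 extra genes called in KD normal, Nup37 and Nup93, were lower there. Quantile normalization called Nup214 lower in KD normal. Leaving out each array in turn gave 18 to 23, 26 to 30, 0 to 9, 0 to 19 and 0 to 5. Signs reversed for Nup50 in WT injury with probe 3 (-0.0511), and in KD injury for Ahctf1 with probe 2 (-0.0828), Nup214 with probe 2 (-0.3335), Pom121 with probe 2 (-0.1149) and Nup188 under normexp (-0.0171). The cause was not tested in any of these. With 2 arrays per group, a difference that misses the threshold does not show equal levels.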
